A study of Saccharomyces cerevisiae BY4741 with 4 samples.

Results

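The deposited read count table of this budding yeast series gives some reads to joined names, in which 2 gene names are written together because the genes overlap. Of its 7382 rows, 622 have joined names, and 490 of these join exactly 2 nuclear reading frames on opposite strands, one named for the Watson strand (W) and the other for the Crick strand (C). These 490 opposite-strand segments were taken by name alone, without use of any count, and each was compared with the rows that hold the remaining reads of its 2 genes alone, called single rows here. The segments name 953 genes, of which 491 have an entry in the reference annotation. In 450 segments exactly 1 gene has an entry, in 33 both have one and in 7 neither has. A partner gene with no entry in this annotation is given by its systematic name only.

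The genome of Saccharomyces cerevisiae is compact, and many open reading frames first named from sequence alone lie across a longer gene on the other strand. Genes that overlap at their 3′ ends are convergent, genes that overlap at their 5′ ends are divergent, and a gene that lies wholly inside another is nested. Both strands of such a stretch can be transcribed, and a library that does not record the strand cannot tell their reads apart.

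The cells were of strain BY4741, a haploid laboratory strain of mating type a, labelled wild type, grown in rich glucose medium (YPD) at 30 °C from an OD600 of 0.05 to an OD600 of 0.6 in 100 mL. In both groups the RNA of 10 mL was taken up in hot acidic phenol and freed of DNA with DNase, and each fraction, total RNA and poly(A) RNA, has 2 biological replicates. The poly(A) fraction was selected on oligo-dT beads, after which remaining rRNA was removed with RiboZero Gold. Total RNA had neither step, so the fractions differ by both together. Each library started from 50 ng of RNA, was primed with random hexamers, went through 14 PCR cycles and was read at 50 bases from 1 end. The preparation kit is not stated to mark strand and the strand setting of the counting is not given in the sources used here. The reads of a segment therefore cannot be assigned to either of its genes, and "segment" below means the sum of both. Nor can fewer cells of a kind and less RNA per cell be told apart in such bulk samples.

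The shortest overlaps show what a segment is at the level of bases. For the segments with both genes in the reference, the shared stretch was read from build R64 on the plus strand, with the start or stop codons of the genes in capitals. In the first 3, which are divergent, the capitals mark the start codon of the W gene (ATG) at the left and that of the C gene (CAT, read on the minus strand) at the right. In the next 4, which are convergent, they mark the stop codon of the C gene at the left (TCA or TTA on this strand) and that of the W gene at the right. The last of these, HUR1 and PMR1, is shown because it was the 1 gain among the 24 segments with both genes in the reference and a tested ratio. The last 2 are nested, and the capitals mark the start and the stop of the inner gene.
EMI1 and GRX2, chrIV:1471017-1471063: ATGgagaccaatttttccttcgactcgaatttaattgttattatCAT
YDR114C and MRX14, chrIV:682175-682226: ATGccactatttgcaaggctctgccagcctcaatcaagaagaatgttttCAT
YEL067C and HPA3, chrV:26721-26776: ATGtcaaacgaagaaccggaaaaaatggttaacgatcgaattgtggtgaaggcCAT
YCR041W and TAF2, chrIII:201174-201243: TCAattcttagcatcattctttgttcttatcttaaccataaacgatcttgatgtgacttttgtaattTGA
GRX6 and YDL009C, chrIV:432925-433025: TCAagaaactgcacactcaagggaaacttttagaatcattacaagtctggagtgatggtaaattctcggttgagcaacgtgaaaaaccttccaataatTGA
ECM12 and YHR022C, chrVIII:149575-149680: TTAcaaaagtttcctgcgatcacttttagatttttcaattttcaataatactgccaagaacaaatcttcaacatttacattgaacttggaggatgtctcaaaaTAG
HUR1 and PMR1, chrVII:187616-187796: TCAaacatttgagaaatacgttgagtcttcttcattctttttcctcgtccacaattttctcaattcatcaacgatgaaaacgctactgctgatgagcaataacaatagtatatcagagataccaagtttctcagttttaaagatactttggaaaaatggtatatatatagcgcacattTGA
YJL077W-A within ICS3, chrX:294799-294885: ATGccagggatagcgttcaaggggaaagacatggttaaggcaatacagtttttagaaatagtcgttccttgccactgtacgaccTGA
CPP2 within YDR209C, chrIV:871074-871301: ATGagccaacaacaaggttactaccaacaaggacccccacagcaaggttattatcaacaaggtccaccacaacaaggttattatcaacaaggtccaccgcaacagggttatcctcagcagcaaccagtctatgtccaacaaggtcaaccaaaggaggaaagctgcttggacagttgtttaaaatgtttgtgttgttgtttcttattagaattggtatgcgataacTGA

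The overlap of EMI1 and GRX2 (a glutaredoxin) is 47 bases long, the shortest of the 33 overlaps with a row whose length could be read. Of the reference overlaps whose genes are both named in the table, the 33 that have a row run from 47 to 518 bases, and the 12 that have none run from 2 to 35 bases. By the coordinates, 15 segments are convergent, 10 divergent and 8 nested. For the others the orientation was read from the systematic names, whose numbers run along each chromosome arm and whose last letter gives the strand. Name order gave the coordinate order of 5621 of 5626 neighbouring reference genes (99.9%) and the orientation of 32 of 32 overlaps in the reference that are not nested. By name order 122 further segments were convergent and 183 divergent. Name order cannot show nesting: YDR209C with CPP2, nested by the coordinates, was divergent by name order. Some of the 122 and 183 may therefore be nested. In 102 further segments 1 gene had no single row, and in 50 the order could not be read.

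The fractions differed widely in how many counts fell on reading frames. The total RNA libraries held 53746838 and 75955489 counts and the poly(A) libraries 52851542 and 53180654, but only 3.14% and 3.15% of the total RNA counts lay on nuclear reading frames, against 99.8% in both poly(A) libraries. The segments held 70104 and 102379 counts in total RNA and 2353568 and 2380957 in poly(A) RNA. A median segment thus had 17 and 23 counts in total RNA and 484.5 and 482 in poly(A) RNA, and 24, 19, 2 and 1 segments had no count in the respective libraries. The label was checked by mating type markers: the 6 a-cell genes STE2, MFA1, MFA2, STE6, BAR1 and AGA2 summed to between 367 and 421 normalised CPM (the usual per-library-size unit, here after TMM scaling) in the 4 libraries, and the 4 alpha-cell genes STE3, MF(ALPHA)1, MF(ALPHA)2 and SAG1 to between 5.19 and 10.8.

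Opposite-strand segments took a small and even share of the mRNA reads. They held 4.15% and 4.29% of the counts on nuclear reading frames in total RNA and 4.46% and 4.49% in poly(A) RNA. Total RNA averaged 4.22% ± 0.0954 (SD, n = 2). Poly(A) RNA averaged 4.48% ± 0.0171 (SD, n = 2), and the 2 groups did not overlap. An exact two-sided permutation test gave p = 0.33, the smallest that 2 against 2 libraries allow.

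The counts were concentrated in few segments. The 10 with most poly(A) counts held 68.2% and 69.1% of all segment counts in total RNA and 63.7% and 63.8% in poly(A) RNA. All 10 lie on a gene for glycolysis, ribosomal proteins or a ribosome-bound chaperone. The plot of the 10 largest segments shows their levels in each library.

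**Figure D1:**
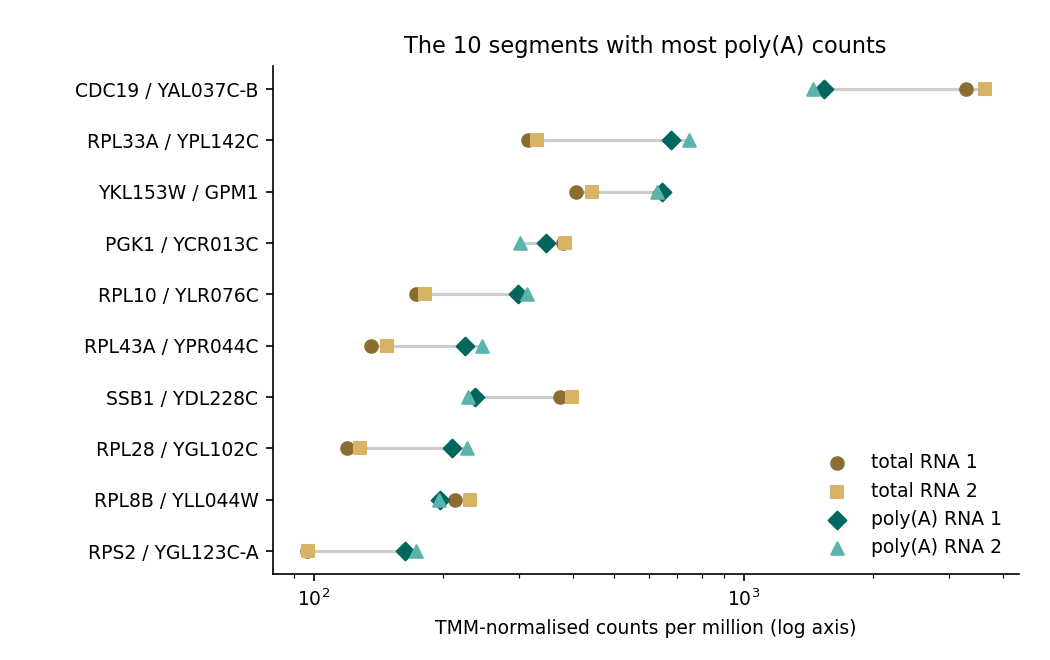
TMM-normalised CPM (log axis) of the 10 segments with most poly(A) counts in the 4 libraries; each point is 1 library and the grey line spans the 4 values. CDC19 with YAL037C-B is the highest in every library and lies higher in total RNA, as do SSB1, PGK1 and RPL8B with their partners, and the other 6 segments lie higher in poly(A) RNA.

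The largest segment joins CDC19, the gene of the main pyruvate kinase, with YAL037C-B. It had 28558 and 42985 counts in total RNA and 508608 and 488408 in poly(A) RNA, and the single row of CDC19 had 15591 and 22912 against 228931 and 211145. The single row of YAL037C-B had 2, 4, 64 and 67 counts, so nearly all reads along this locus lay on the segment or on CDC19 alone. TMM scaling centres the libraries on a trimmed mean of their log ratios, and fold changes are relative to that centre. After this scaling, the segment was lower in poly(A) RNA by a log2 fold change of -1.21 ± 0.0772 (SE; edgeR quasi-likelihood test, adjusted p = 1.05e-11). The fold change of the CDC19 row was -1.50.

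The segments on GPM1 and PGK1, which encode phosphoglycerate mutase and phosphoglycerate kinase, moved less. YKL153W with GPM1 had 3541 and 5258 counts in total RNA and 213292 and 212000 in poly(A) RNA, a log2 fold change of 0.58 ± 0.074 (edgeR adjusted p = 5.95e-07). PGK1 with YCR013C had 3298 and 4529 against 114592 and 101294 counts, with a log2 fold change of -0.23 ± 0.0782 (edgeR adjusted p = 0.0131). The first was higher in both poly(A) libraries than in either total RNA library, after scaling. The second was lower in both, but its call was lost without poly(A) RNA replicate 2, where it stood at -0.12, and its fold change became 0.09 when libraries were scaled to the sum of counts on reading frames.

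SSB1 with YDL228C lies on the gene of a ribosome-associated Hsp70 chaperone. It had 3245 and 4726 counts in total RNA and 78255 and 76841 in poly(A) RNA, and fell by 0.73 on the log2 scale (SE 0.0735; edgeR adjusted p = 1.71e-08). Of the stretches of 50 bases in SSB1, 43.2% occur elsewhere in the genome, and SSB2 is its near-identical copy, so its counts are uncertain.

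The 6 segments on ribosomal protein genes among the 10 largest were mostly higher in poly(A) RNA. RPL33A with YPL142C had 2735 and 3916 counts in total RNA and 223850 and 251340 in poly(A) RNA, and rose by a log2 fold change of 1.14 ± 0.0763 (edgeR adjusted p = 2.26e-11). RPL10, RPL28, RPL43A and RPS2 rose with their partners by 0.79, 0.82, 0.73 and 0.80 on the log2 scale. RPL8B with YLL044W had 1855 and 2730 counts in total RNA and 64927 and 65907 in poly(A) RNA, with a log2 fold change of -0.18 ± 0.0741 (edgeR adjusted p = 0.0408), and this became 0.14 with scaling to the sum on reading frames. The call was also lost without either poly(A) replicate and without total RNA replicate 2, where the fold change was -0.11. Stretches of 50 bases found elsewhere in the genome made up 6.93% of RPL8B and 0% of the other 5 genes.

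Across all rows, edgeR called 31% of 6945 tested rows higher in poly(A) RNA and 31.2% lower. Either way, 62.2% were called. Of the 485 segments tested, 109 were higher (22.5%), 134 were lower (27.6%) and 242 did not pass. Their median log2 fold change was -0.03, beside 0.04 for all rows. In 339 segments the 2 groups of libraries did not overlap, beside 81.1% of all rows. The 5 segments not tested had between 1 and 15 counts in all.

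Few segments had counts high enough for narrow errors. Among the 173 segments with a mean under 1 normalised CPM, 168 were tested, and 4 were higher and 26 lower, beside 7.29% and 11.8% of all rows in that range. Among 256 with 1 to under 10, 70 were higher and 89 lower, beside 35.96% and 22.3% of all rows. Among 48 with 10 to under 100, 29 were higher and 12 lower, beside 34.6% and 45.2%, and among 13 with 100 or more, 6 were higher and 7 lower, beside 32.9% and 56.6%. The median SE of the log2 fold change was 0.59 in the lowest class and 0.11 in the class of 10 to under 100. A filter of at least 10 CPM in 2 libraries left 219 segments, with 100 higher and 44 lower. It acts before scaling, where a median segment lies far under 10 CPM in total RNA, so segments passed mostly through the poly(A) libraries. Segments low in poly(A) RNA are thus removed by the filter itself, and its split of calls cannot show a shift towards higher. Scaling to the sum on reading frames gave 150 higher and 93 lower, and scaling to library totals, most of which were rRNA in total RNA, gave 485 higher and 0 lower, also at an unadjusted p. These scalings moved the median log2 fold change of all rows to 0.36 and 5.34.

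Orientation classes differed in their counts of calls under the main scaling, and the difference between the classes was not tested. Of 136 convergent segments tested, by coordinates or name order, 49 rose and 16 fell, at a median log2 fold change of 0.26. Of 191 divergent segments, 33 rose (17.3%) and 62 fell (32.5%), at a median of -0.14. Beside the 31% of all rows called higher and 31.2% called lower, the convergent share of rises and the divergent share of falls were near those of all rows. The convergent share of falls and the divergent share of rises were below them. Scaling to library totals made all of them higher. The medians became 0.59 and 0.17 when libraries were scaled to the sum on reading frames, so the divergent median changed sign with the scaling while staying below the 0.36 of all rows, and 50 divergent segments were then higher and 38 lower. The filter of 10 CPM, with TMM scaling, keeps segments mostly by their poly(A) counts, so its split of calls is no check on direction. It left 89 divergent segments, of which 32 were higher and 23 lower at a median of 0.10. It left 77 convergent ones, of which 45 were higher and 9 lower. These counts rest on orientations read from names: of the 15 convergent segments with coordinates 3 were higher and 2 lower, at a median of 0.07, and of the 10 divergent ones 2 were higher and 3 lower, at a median of 0.29.

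Segments with 1 gene lacking a single row had the lowest median, -0.38, with 17 higher and 42 lower of 100 tested. The shares of all rows, 31% higher and 31.2% lower, stand beside this class and the repeated genes below. Many of these belong to the Y′ elements, repeated stretches near chromosome ends that carry the YRF1 helicase genes. Of 31 segments with a gene of which over 50% of 50-base stretches occur elsewhere in the genome, 27 were lower and 0 were higher by edgeR, also at an unadjusted p and by the DESeq2 Wald test. The 13 segments on named YRF1 genes had 4 to 73 counts per total RNA library and 78 to 549 per poly(A) library, and their log2 fold changes ran from -1.95 to -0.91. Reads of these copies cannot be told apart, so the near-equal values are not separate measurements. Without the repeated genes, segments with 1 gene lacking a single row had a median of 0.07, with 17 higher and 19 lower, and the convergent and divergent medians stayed at 0.26 and -0.14.

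The largest called rises with well-filled total RNA libraries were on ribosomal protein genes. RPL39 with YJL188C, on a large-subunit ribosomal protein gene, had 106 and 136 counts in total RNA and 11788 and 13796 in poly(A) RNA, a log2 fold change of 1.70 ± 0.115 (edgeR adjusted p = 2.61e-11). RPS27A with YKL156C-A had 137 and 124 counts in total RNA and 11549 and 13587 in poly(A) RNA, a log2 fold change of 1.55 ± 0.134 (edgeR adjusted p = 1.58e-09). After scaling, the fractions did not overlap for either segment, with poly(A) RNA on the higher side.

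TIM9, which encodes a small chaperone of the mitochondrial intermembrane space, shared a segment with YEL020C-B of 4 and 13 counts in total RNA and 818 and 848 in poly(A) RNA. Its log2 fold change was 1.60 ± 0.317 (edgeR adjusted p = 0.000164). HRT1, the RING subunit of SCF ubiquitin ligases, shared one with YOL134C of 18 and 12 counts against 1337 and 1530, with a log2 fold change of 1.55 ± 0.257 (edgeR adjusted p = 2.06e-05). Both calls held in all 11 alternatives, but the sizes moved: TIM9 stood at 1.19 without total RNA replicate 1 and 2.45 without replicate 2, and HRT1 at 2.09 and 1.06.

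The other 2 of the 6 largest calls had 2 or fewer total RNA counts. MPF1 with YNL144W-A had 0 and 0 counts in total RNA and 61 and 58 in poly(A) RNA, which against a floor of 3 counts over the total RNA group is at least 1.22-fold higher. HEF3 with YNL013C had 1 and 1 counts against 121 and 130, a ratio of 3.86 with an exact 95% interval of 1.06 to 32.1 from the counts. HEF3 encodes an elongation factor with a near relative, YEF3. Both calls were lost without any 1 of the 4 libraries, with edgeR adjusted p up to 0.179 for MPF1 and 0.25 for HEF3 over the alternatives.

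In the largest falls, raw counts rose far less from total RNA to poly(A) RNA than the median count per segment did. VRP1, the actin-associated protein verprolin, shared with YLR338W a segment of 69 and 117 counts in total RNA and only 137 and 123 in poly(A) RNA, a log2 fold change of -4.53 ± 0.198 (edgeR adjusted p = 1.33e-14). MTL1, a cell wall stress sensor, shared one with YGR022C of 60 and 38 counts against 115 and 84, with a log2 fold change of -4.01 ± 0.313 (edgeR adjusted p = 3.02e-10). By comparison, a median segment had 17 and 23 counts in total RNA and 484.5 and 482 in poly(A) RNA.

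PUF4, an RNA-binding protein of the Puf family, shared with YGL014C-A a segment of 47 and 53 counts in total RNA and 181 and 156 in poly(A) RNA, a log2 fold change of -3.27 ± 0.233 (edgeR adjusted p = 6.48e-11). NUM1, a cortical anchor of dynein and mitochondria, shared one with YDR149C of 46 and 37 counts against 138 and 184 (log2 fold change -3.08 ± 0.279, edgeR adjusted p = 3.51e-09). CAR2, which encodes ornithine transaminase, shared one with YLR437C-A of 38 and 57 counts against 183 and 185 (log2 fold change -3.06 ± 0.225, edgeR adjusted p = 1.06e-10). Each of these genes fell with its segment, the single rows of PUF4, NUM1 and CAR2 having log2 fold changes of -2.66, -2.75 and -3.08, and 20.7% of the stretches of NUM1 occur elsewhere. YLR463C with YLR464W, near a chromosome end, had 3 and 8 against 22 and 22 counts and a log2 fold change of -3.01. Of YLR464W, 94.3% of the stretches occur elsewhere, and the call was lost without total RNA replicate 2.

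Segments mostly followed the gene that carried more reads. Of the 351 segments with 1 gene in the reference and both single rows, that gene had the higher summed single-row counts in 341. Over the 372 segments for which both the segment and its larger gene row were tested, 71 were higher in both, 79 lower in both and 102 called in neither. In 17 higher and 11 lower segments the gene row did not pass. In 41 and 50 only the gene row was called, higher and lower. The remaining 1 was called in opposite directions. That segment was HEF3 with YNL013C, higher at a low count while the HEF3 row fell by 0.51 on the log2 scale. Pearson's r between the fold changes of segment and gene was 0.77, a description across segments whose points share the same 4 libraries. Of 303 segments with both gene rows tested, 140 lay between the fold changes of their genes and 190 lay nearer to the gene with more counts.

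**Figure D2:**
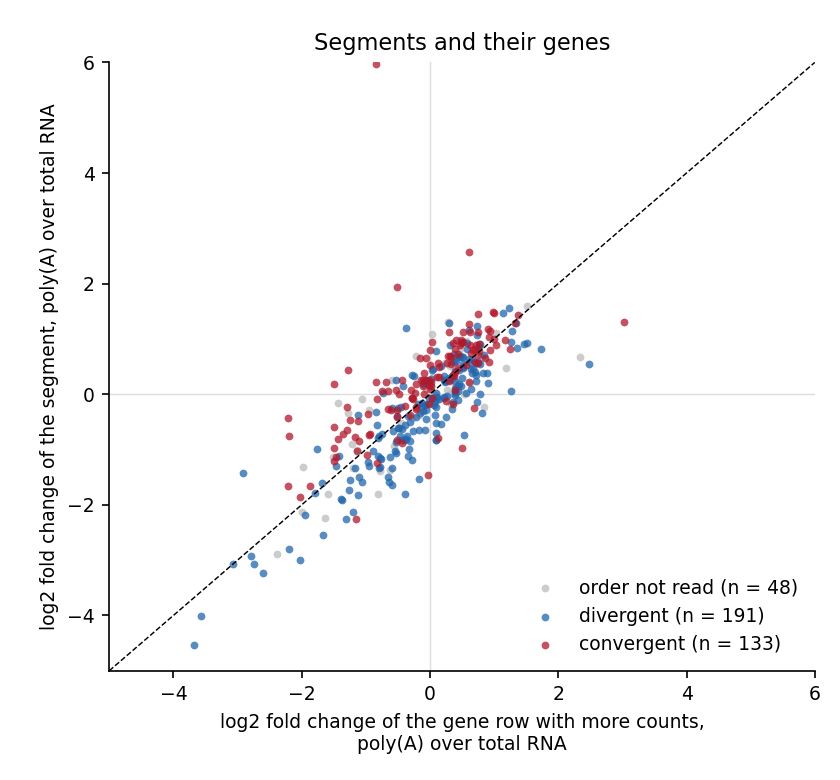
The log2 fold change of each segment (y axis) against that of the gene row with more counts (x axis), poly(A) over total RNA, for 372 segments coloured by orientation; the dashed line marks equal values. Points gather along the line, with r = 0.77, and the point near the top, YNL319W with HXT14, had 0 counts in both total RNA libraries, so its fitted value is no measure of size.

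To compare a segment with its own genes, the ratio of the segment's counts to the summed counts of both single rows was tested for a change between fractions, which does not depend on how libraries are scaled. Over all 444 joined rows of 2 names with enough counts, edgeR called 5.18% gained in poly(A) RNA and 4.5% lost, 9.68% either way. Of 377 opposite-strand segments tested, 17 were gained and 17 lost, 4.51% each, and these segments make up most of the 444 rows. Of the 59 same-strand segments tested, 6 were gained and 1 lost. The median log2 change of the ratio was -0.02, with 183 segments above 0 and 194 below. The calls rested on the total RNA libraries: without total RNA replicate 1 there were 6 gained and 1 lost, and without replicate 2, the deeper one, 1 gained and 0 lost, or 26 and 28 at an unadjusted p. DESeq2's Wald test gave 6 gained and 7 lost, and leaving out poly(A) RNA replicate 2 gave 11 and 9.

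Gains were mostly convergent and losses mostly divergent. Of 135 convergent segments, 14 were gained (10.4%), 3 were lost (2.22%), and 100 lay above 0, with a median log2 change of 0.22. Of 192 divergent segments, 1 was gained (0.521%), 12 were lost (6.25%), and 132 lay below 0, with a median of -0.19. Over all 444 joined rows tested the shares were 5.18% and 4.5%. Over 10 alternatives, the convergent median stayed between 0.20 and 0.26 and the divergent one between -0.21 and -0.15. Against the gene with more counts alone, edgeR called 18 of 485 segments gained and 14 lost. By orientation, 12 of 136 convergent segments were gained and 2 lost, and 1 of 192 divergent ones was gained and 9 lost. Over all 983 pairs of a joined row with either of its genes, which include the genes with fewer counts, 2.64% were gained and 1.93% lost (4.58% either way). Without total RNA replicate 2 only 1 convergent gain and 0 divergent losses were called. Orientation was read from names for most segments. The 14 convergent and 10 divergent segments with coordinates and a tested ratio had medians of 0.05 and 0.01, with 1 gained and 0 lost.

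**Figure D3:**
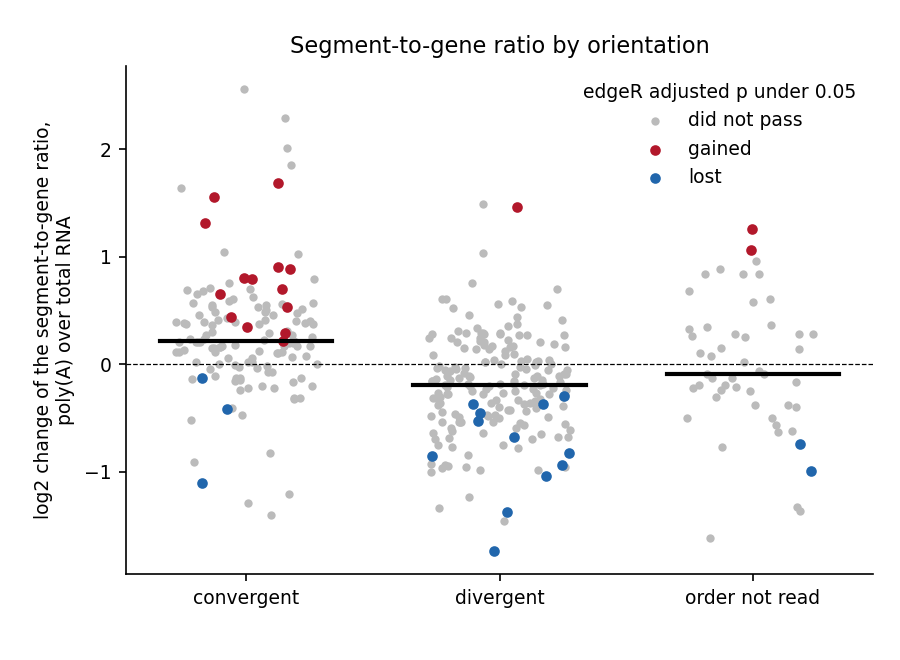
The log2 change of the segment-to-gene ratio between poly(A) and total RNA for 377 segments by orientation; each point is 1 segment, coloured where edgeR's adjusted p was under 0.05, and the black bars are medians. The convergent median lies at 0.22 and holds 14 of the 17 gains, and the divergent median lies at -0.19 and holds 12 of the 17 losses.

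Among the gains, HUR1 with PMR1 has both genes in the reference. Its 181 bases lie at chrVII:187616-187796, and PMR1 encodes a calcium and manganese pump of the Golgi. The segment had 36 and 45 counts in total RNA and 664 and 890 in poly(A) RNA, while the PMR1 row had 653 and 900 against 5228 and 5738 and the HUR1 row 43 and 59 against 780 and 931. The segment thus held 4.92% and 4.48% of the reads of the locus in total RNA and 9.95% and 11.8% in poly(A) RNA. The log2 change of its ratio was 1.31 ± 0.175 (edgeR adjusted p = 1.86e-11), and the value ran from 1.17 to 1.44 over the alternatives, with the call lost only without total RNA replicate 2 (adjusted p = 0.0819). Across all rows the segment fell by 0.76 on the log2 scale, the HUR1 row by 0.95 and the PMR1 row by 2.20.

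The largest called gains had few total RNA counts. SAP1, which encodes a putative ATPase of the AAA family, shared with YER046W-A a segment of 2 and 4 counts in total RNA and 60 and 84 in poly(A) RNA, a log2 change of ratio of 1.69 ± 0.568 (edgeR adjusted p = 0.0362). APC1, the largest subunit of the anaphase-promoting complex, shared one with YNL171C of 4 and 10 counts against 243 and 271, with a change of 1.56 ± 0.382 (edgeR adjusted p = 0.00123). SFL1, a repressor of flocculation genes, shared one with YOR139C of 3 and 12 counts against 77 and 104, a change of 1.47 ± 0.392 (edgeR adjusted p = 0.00356). All 3 calls were lost without either total RNA replicate, and the change of SFL1 was then 1.05 without replicate 1 and 2.44 without replicate 2. In SAP1 and APC1 the segment itself did not pass the test across all rows, with log2 fold changes of -0.43 and 0.18, while the gene rows fell by 2.22 and 1.50.

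NUP159, a nuclear pore protein of the cytoplasmic face, shared with YIL115W-A a segment of 23 and 14 counts in total RNA and 536 and 550 in poly(A) RNA. Its ratio changed by 1.26 ± 0.241 on the log2 scale (edgeR adjusted p = 1.11e-05), by 1.96 without total RNA replicate 1 and by 0.57 without replicate 2, where the call was lost. The call was lost too with the replicate block and by the DESeq2 Wald test. APM2, a subunit of a clathrin adaptor, shared one with YHL019W-A of 8 and 15 counts against 803 and 787, with a change of 1.06 ± 0.357 (edgeR adjusted p = 0.0362) that was lost without any 1 of the 4 libraries. Of these largest gains, the segments on PMR1, SAP1 and APC1 are convergent and that on SFL1 is the 1 divergent gain. The order of NUP159 and APM2 with their partners could not be read. The remaining gains, with log2 changes from 0.22 to 0.91, were all convergent. Among them were the segments on ILS1 (isoleucyl-tRNA synthetase), NOP56 (a box C/D snoRNP core protein), CCT8 (a chaperonin subunit) and the Mediator genes SIN4 and SSN2. ILS1 with YBL077W had 140 and 185 counts against 3331 and 3427 and a change of 0.65 (edgeR adjusted p = 5.32e-11).

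CDC19 gave the most precise gain. Its segment held 64.7% and 65.2% of the reads of the locus in total RNA and 69.0% and 69.8% in poly(A) RNA, with no overlap of the groups. The log2 change of the ratio was 0.29 ± 0.0299 (edgeR adjusted p = 8.16e-19), and this was the 1 call of the 15 named ones that held in all 10 alternatives. SSB1 with YDL228C held 40.3% and 39.8% in total RNA and 43.5% and 43.9% in poly(A) RNA, a change of 0.22 ± 0.043 (edgeR adjusted p = 2.23e-05) whose adjusted p was 0.0851 without total RNA replicate 2.

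DPB3, which encodes a subunit of DNA polymerase epsilon, had the largest loss. Its segment with YBR277C had 15 and 20 counts in total RNA and 784 and 869 in poly(A) RNA, but the DPB3 row had 4 and 2 against 526 and 567. The ratio fell by 1.74 on the log2 scale (SE 0.594; edgeR adjusted p = 0.0393), with most of the locus in the segment in both fractions, 78.9% and 87.0% against 59.2% and 59.4%. The call rested on 6 total RNA counts of DPB3 and was lost without any 1 of the 4 libraries.

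The other large losses were also divergent by name order, apart from 2. GPR1, a glucose-sensing receptor, shared with YDL034W a segment of 11 and 15 counts in total RNA and 173 and 120 in poly(A) RNA, a log2 change of ratio of -1.37 ± 0.377 (edgeR adjusted p = 0.00485). ARG56, which encodes enzymes of arginine synthesis, shared one with YER068C-A of 26 and 39 counts against 328 and 347, with a change of -1.04 ± 0.258 (edgeR adjusted p = 0.00127). STE20, a kinase of the pheromone pathway, shared one with YHL006W-A of 18 and 19 counts against 133 and 120, a change of -0.94 ± 0.317 (edgeR adjusted p = 0.0362). In all 3 the segment fell, by 1.53, 1.64 and 2.25 on the log2 scale, and the gene rows stood at -0.17, -0.59 and -1.31. The 2 exceptions are MNN4, a regulator of mannosylphosphate transfer, whose segment with YKL202W is convergent, and RSC30, of the RSC chromatin remodelling complex, whose order with YHR056W-A could not be read.

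MNN4 with YKL202W had 35 and 39 counts in total RNA and 246 and 259 in poly(A) RNA, a change of -1.10 ± 0.263 (edgeR adjusted p = 0.000784). RSC30 with YHR056W-A had 40 and 45 against 382 and 412, a change of -0.996 ± 0.223 (edgeR adjusted p = 0.000371). Of RSC30, 39.2% of the stretches occur elsewhere in the genome. None of the 6 named losses held without total RNA replicate 1 or without replicate 2. GPM1 with YKL153W lost only 0.13 on the log2 scale, from 54.8% and 55.6% of the locus to 53.3% and 52.7%, and its call was lost without any 1 of the 4 libraries. A further 10 losses ran from -0.86 to -0.30, on VRP1, PSK2, NDC1, HIP1, PMT1, TNA1, EMC1, SCS2, CCT6 and GND1, of which all but NDC1 and EMC1 are divergent.

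For 9 genes one segment was convergent and another divergent, by coordinates or name order, and these were set side by side. The convergent segment had the higher log2 fold change in 7 of the 9, with a median difference of 0.71. The 7 include GRX6, with a difference of 0.03 and 2 and 0 total RNA counts in its convergent segment. They also include YLR463C, with 4 and 5 total RNA counts in its convergent segment and 3 and 8 in its divergent one. Of the stretches of its partners, 91.1% and 94.3% occur elsewhere in the genome. CCC2, a copper-transporting ATPase, had 15 and 28 counts in total RNA and 530 and 482 in poly(A) RNA in its convergent segment with YDR271C. In its divergent segment with YDR269C it had 14 and 16 against 184 and 147. The log2 fold changes were -0.46, which did not pass, and -1.56, which was called lower. MRX3 had log2 fold changes of 0.99 and 0.16 in its convergent and divergent segments, HSF1 (the heat shock transcription factor) -0.09 and -0.66, and APS1 (a clathrin adaptor subunit) 0.57 and -0.14. Of these only the convergent segment of MRX3 passed the edgeR test. HSF1 had 12 and 3 total RNA counts in its divergent segment, and APS1 had 3 and 4 in its convergent one. The exceptions were JJJ1, whose convergent segment was lower by 0.22, and YOR365C, with 0.08 and 0.26. JJJ1 had 5 and 1 total RNA counts in its divergent segment. YOR365C had 1 and 3 in its convergent segment and 0 and 2 in its divergent one. The differences were not tested.

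The medians lay further apart on longer main genes, the main gene being that with more counts. For convergent segments the median log2 change of ratio was 0.13 where that gene was under 1000 bases (n = 51), 0.21 from 1000 to under 2000 bases (n = 44) and 0.48 from 2000 bases (n = 34). For divergent segments the medians were -0.11 (n = 63), -0.23 (n = 79) and -0.24 (n = 47). Spearman's rho between length and change was 0.28 over 129 convergent and -0.14 over 189 divergent segments, as a description across segments of the same 4 libraries. No convergent gain was on a gene under 1000 bases.

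**Figure D4:**
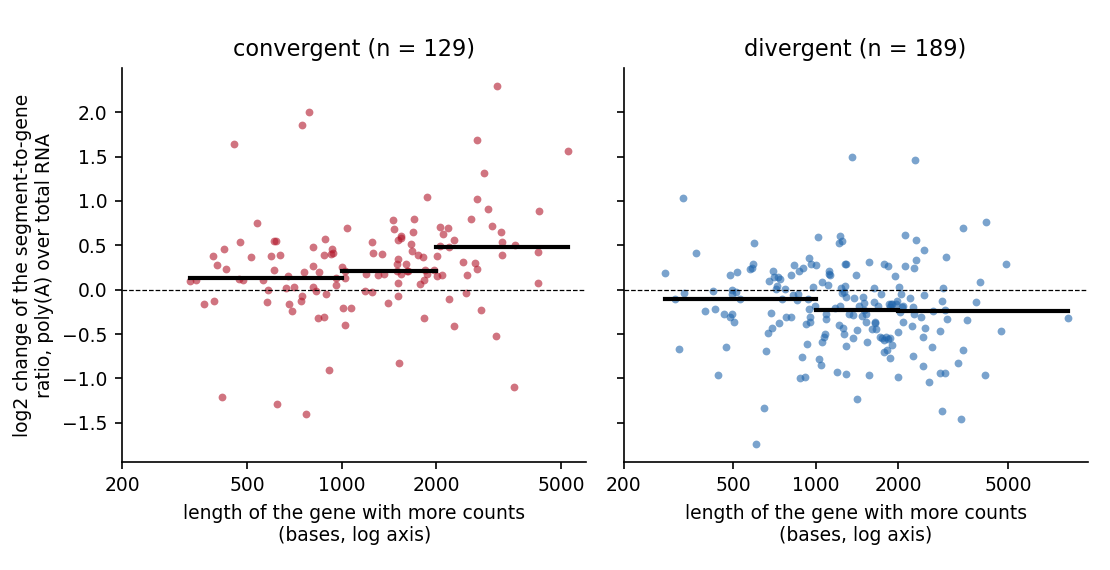
The log2 change of the segment-to-gene ratio against the length of the gene with more counts (bases, log axis), for 129 convergent and 189 divergent segments; each point is 1 segment and the black bars are medians of the length classes. The convergent medians rise from 0.13 to 0.48 with length and the divergent ones fall from -0.11 to -0.24.

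The genes were grouped by their standard names, and each group's shares are to be read beside the 31% of all rows called higher and 31.2% called lower. Of 14 segments with a cytosolic ribosomal protein gene, 12 rose in poly(A) RNA and 2 fell, at a median log2 fold change of 0.71, or 85.7% and 14.3% beside 31% and 31.2% of all rows. The 2 lower ones, on RPP0 and RPL8B, were not called lower with scaling to the sum on reading frames, which left 12 higher. For this group as for the others below, library totals made every segment higher. Of the 9 with a tested ratio 0 passed the edgeR ratio test, and their median change was 0.005. RPL36B with YPL250W-A, for example, had 500 and 801 counts against 25016 and 24773 and a log2 fold change of 0.25, with a change of ratio of 0.00.

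Of 4 segments with a mitochondrial ribosomal protein gene, 3 were higher (75%), among them MRPL38 with YKL169C at 25 and 34 against 2280 and 2442 counts and a log2 fold change of 1.30, or 2 higher and 1 lower without total RNA replicate 2. Of 10 with a gene of the RNA polymerase and general transcription factor list, 6 rose, 1 fell and 3 did not pass, at a median of 0.46 (60% and 10%). RPB3, a subunit of RNA polymerase II, had 2 segments, with YIL021C-A and YIL020C-A, at log2 fold changes of 0.44 and 1.04. The lower one was SPT6 with YGR115C, at -1.19. SPT6 encodes an elongation factor that carries histones. It and SPT4, another elongation factor, called higher at 0.47, are in the list by the prefix of their names.

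Of 11 segments with a gene of the cell cycle, replication or repair list, 7 fell (63.6%) and 1, on CDC42, rose (9.09%), at a median of -1.10, and 4 were lower without poly(A) RNA replicate 2 and 5 with scaling to the sum on reading frames. That list includes CDC19, which is a glycolytic gene despite its name. The strongest fall was on CDC6, a loader of the replicative helicase, whose segment with YJL195C had 32 and 48 counts in total RNA and 178 and 195 in poly(A) RNA and a log2 fold change of -2.80. Of 7 segments with a ribosome biogenesis gene, 2 rose, 2 fell and 3 did not pass (28.6% each way, near the share of all rows), against 4 and 1 with scaling to the sum on reading frames. RRP15 with YPR142C stood at 1.14 and RRP14 with YKL083W at -1.86. Of 8 with a gene of the secretion and vacuolar sorting list, 2 rose, 3 fell and 3 did not pass (25% and 37.5%, near the share of all rows). That list includes genes of the vacuolar ATPase. The 2 that rose were both of these, VMA4 at 0.68 and VMA9 at 0.90, and VMA1, at -1.80, was among the 3 that fell. SEC61, which holds the pore of protein translocation into the endoplasmic reticulum, stood at -2.18.

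Joined rows take reads away from the rows of annotated genes. Of the 491 reference genes in segments, 340 had more than 10% of their reads in segments in both poly(A) libraries, 110 more than 50% and 31 more than 90%. The median was 20.02% and 20.28% in poly(A) replicates 1 and 2. The last count includes 16 genes with no single row, whose reads here all lay in joined rows. RPL43A, RPL22A and RPL39 are among them, with 74359 and 82950, 42809 and 39239, and 11788 and 13796 poly(A) counts in their segments. HYP2, which encodes the translation factor eIF5A, had 32284 and 34467, and DID2, of the ESCRT machinery, 3773 and 4263.

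Others kept a small single row. RPL36B had 113 and 109 poly(A) counts alone and 25016 and 24773 in its segment, or 99.6% in the segment in replicate 1. RPL33A had 95.7% and RPL28 94.8% of their reads in segments in poly(A) replicate 1. VMA4 (a vacuolar ATPase subunit), OST2 (an oligosaccharyltransferase subunit) and RHO2 (a small GTPase) had 85.7%, 85.6% and 91.5%. How much of a segment's reads came from such a gene and how much from its partner cannot be told apart.

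**Figure D5:**
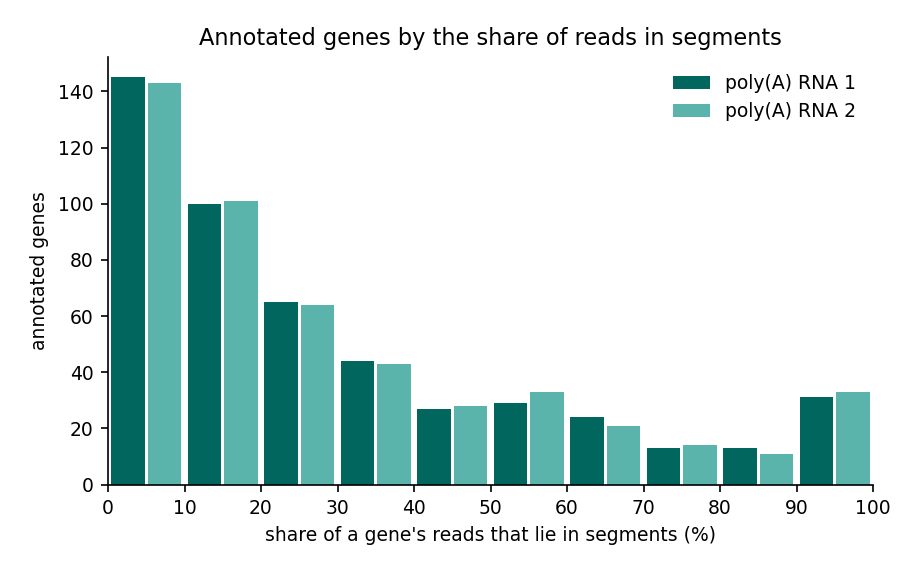
The number of annotated genes (of 491) by the share of their reads that lay in opposite-strand segments, in classes of 10%, for the 2 poly(A) libraries; each bar is 1 library. In replicate 1, 145 genes lie under 10%, and 31 lie at 90% or more.

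Where both genes have coordinates, segment counts could be set against length. Counts per base of the segment, over the overlap plus 49 bases, were compared with the sum of the 2 genes' counts per base outside any overlap, for 20 segments. The median log2 ratio was -1.17 and -1.53 in total RNA and -1.38 and -1.43 in poly(A) RNA, so in this form segments held fewer reads per base than that sum. With the overlap minus 49 bases in place of plus 49, the medians were -0.06, -0.49, -0.63 and -0.38 over 19 segments. The value thus depends on how many bases are taken to feed a segment.

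The longest overlaps with both genes in the reference had more counts. The overlap of RSC2, a subunit of the RSC complex, and YLR358C is 514 bases long, at chrXII:843487-844000. It had 43 and 62 counts in total RNA and 1299 and 1485 in poly(A) RNA, with a log2 fold change of -0.29 ± 0.167 that did not pass (edgeR adjusted p = 0.135). JIP3 and MID2 overlap over 371 bases. MID2 is a cell wall stress sensor, and its segment had 238 and 287 counts in total RNA and 3910 and 3019 in poly(A) RNA, with a log2 fold change of -1.30 ± 0.127 (edgeR adjusted p = 1.09e-08). The JIP3 row alone had 0, 0, 6 and 6 counts, and MID2 had 352, 425, 5243 and 3901.

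The longest overlap, 518 bases, is that of MTO1 (a mitochondrial tRNA modification protein) and YGL235W, with 21 and 22 counts against 426 and 425 and a log2 fold change of -0.72 (edgeR adjusted p = 0.0204). YPR099C and MRPL51 overlap over 323 bases, and the segment held 75.4% and 73.4% of the reads of this locus in poly(A) RNA, with 1437 and 1612 counts. HEM14 (protoporphyrinogen oxidase) and BUD25, which overlap over 439 bases, had 21 and 24 counts against 1121 and 1271 and rose by 0.71 (edgeR adjusted p = 0.00769). FMP49 and HVG1, with 376 bases, did not pass at 11 and 5 against 326 and 286 counts.

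The short overlaps whose sequences stand above all had few counts. EMI1 with GRX2 had 0 and 4 counts in total RNA and 107 and 82 in poly(A) RNA, YDR114C with MRX14 had 1 and 2 against 51 and 76, and YEL067C with HPA3 had 3 and 7 against 193 and 182. Of the convergent ones, YCR041W with TAF2 had 1 and 1 against 15 and 22, GRX6 with YDL009C 2 and 0 against 27 and 42, and ECM12 with YHR022C 2 and 1 against 17 and 18. Of YCR041W, 76.8% of the stretches occur elsewhere in the genome. Of these 6 segments 0 passed the edgeR test across all rows, with standard errors from 0.48 to 1.24 on the log2 scale, so large changes are not excluded. Among the 8 nested segments 2 were higher and 2 lower (25% each, beside 31% and 31.2% of all rows). CPP2 within YDR209C (17 and 23 against 1610 and 1538 counts) and NAG1 within IMO32 (22 and 36 against 1451 and 1476) rose by 1.28 and 0.64, while SLM6 within REI1, at 39 and 87 against 1890 and 2257, had 0.03 and did not pass. YJL077W-A within ICS3 had 0 and 1 against 28 and 35 counts.

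Whether total RNA and poly(A) RNA of the same number came from 1 culture is not in the labels. Error rests on 2 libraries per fraction. The edgeR p-values use a spread between these samples that is shared across the rows fitted, not that of each segment alone.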

How the data were processed

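The table deposited by the authors holds unnormalised read counts, whole numbers with a row for each feature or joined name and a column for each library, per the file headers. The submitters' processing notes name Bowtie2 2.3.4.3, cutadapt 1.18, FastQC 0.11.8 and the build R64, and no roles. The counting program and its strand setting are not given in the sources used here. A further 5 lines were empty, and every column was matched to a sample.

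Segments were found by name. Differences between poly(A) and total RNA were tested over all rows with edgeR 4.0.16 (R 4.3.3): filterByExpr, TMM normalisation (factors 0.162, 0.156, 6.25 and 6.34), quasi-likelihood testing with Benjamini-Hochberg adjusted p under 0.05, with all 4 libraries and no block. The change of the segment-to-gene ratio was the interaction of row type with fraction in a second edgeR fit on 8 columns per segment, with at least 10 segment and 10 gene counts in all. The square roots of the common dispersions were 0.0612 and 0.03. Tested on simulated data, the fit over all rows recovered 89.3% of 2-fold changes and called 0.138% of unchanged rows, and the ratio fit recovered 61% and called 1.17%. The simulations used 1 dispersion for all rows and changed 200 of 6781 and 100 of 444, equally up and down. The first held reading-frame rows only, while edgeR called 62.2% of all rows in the data. These rates therefore need not hold for the data. Normalised CPM use TMM-scaled library sizes, while the filter of 10 CPM used in an alternative is applied before scaling. Fold bounds use a floor of 3 counts over a group; intervals cover counting error only, as the libraries carry no stated molecular identifiers and PCR copies are not separate molecules.

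Coordinates, lengths and sequences are from RefSeq R64, in which genes run from start to stop codon. The share of 50-base stretches found elsewhere in the genome was computed for each gene. Named segments are the 10 with most poly(A) counts, the 6 largest and 6 smallest log2 fold changes among called segments of at least 50 counts whose groups did not overlap, the 6 largest and 6 smallest called ratio changes, and the 3 longest and 3 shortest overlaps of each orientation, of which 1 nested one is not reported here; others were chosen after their values were seen, as were the reading of orientation from names, the length and abundance classes and the genes in 2 segments. The members and lists were chosen with earlier results of these data known. Replicates of a fraction differed beyond sampling noise (chi-square per row 4.00 and 27.7). DESeq2 1.42.0 was an alternative.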

Additional observations from a re-analysis of the deposited data

How the results depend on the processing

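The counts of 109 higher and 134 lower segments stayed within 1.5 times under 10 of 11 alternatives for the higher and 9 of 11 for the lower. Library totals without TMM gave 485 and 0, and the filter of 10 CPM, which removes segments low in poly(A) RNA, left 44 lower. Leaving out 1 library gave 91 to 103 higher and 102 to 122 lower. Gained and lost segments, 17 each, numbered 6 and 7 with DESeq2's Wald test, and from 1 to 19 and from 0 to 15 when 1 library was left out. With segments of at least 1 single row, an alternative chosen after seeing the data, they numbered 23 and 19, and without repeated genes, likewise chosen, 17 and 17, with 109 higher and 107 lower.

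Replicate numbers are shared by the fractions, and same-numbered libraries deviated together with r = 0.18 over all tested rows and 0.10 over segments, but with 2 pairs this does not show pairing. With the replicate block, 107 segments were higher, 130 lower, 7 gained and 4 lost. The cause was not tested.

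Of 22 named log2 fold changes, 10 kept their call in every alternative and 17 in all but library totals, under which 10 reversed, to 2.26 (YLR463C), 2.24 (CAR2), 0.78 (VRP1), 5.13 (RPL8B), 1.29 (MTL1), 2.03 (PUF4), 2.23 (NUM1), 4.58 (SSB1), 5.07 (PGK1) and 4.10 (CDC19). Scaling to the sum on reading frames reversed RPL8B (0.14) and PGK1 (0.085). Uncalled ratio changes near 0 reversed when 1 library was left out: RPL10 ran from -0.0043 to 0.044, RPL8B from -0.033 to 0.037, RPL28 from -0.0077 to 0.105 and PGK1 from -0.048 to 0.0045. The density ratio, -1.38, moved to -0.99 with the overlap alone, -1.01 against the higher gene and -0.39 with the overlap minus 49 bases; without 1 library it ran from -1.45 to -1.33. The difference in the share of reads ran from 0.19 to 0.33 percentage points without 1 library, beside 0.26 with all. It was 0.011 points without segments that have a member lacking a reference entry and 4.33 points with all counts as the denominator. A median segment had 17 and 23 total RNA counts.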
